A study of Rattus norvegicus with 6 samples.

Results

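Nestin (Nes) and 8 further intermediate filament genes were followed in synovial fibroblast-like cells, which were cultured from the joint lining of female Wistar rats with collagen-induced arthritis. The genes were chosen by symbol in the deposited transcript table: Nes, Vim, Des, Synm, Gfap, Krt8, Krt18, Krt19 and Lmna, which are 9 of its 16499 symbols. The set was built around Nes because its fall between MS+ and FBS in these same libraries was among the largest, so the values of Nes are given as a description and without a test. Each of the 9 symbols had a single transcript row, and no member row overlapped a row of another symbol.

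Intermediate filaments are rope-like polymers that give cells and nuclei their resistance to strain. Vimentin (Vim) is the main filament protein of fibroblasts and other mesenchymal cells. Nestin does not build filaments by itself and is incorporated into vimentin or desmin filaments; it is best known from neural and muscle progenitors and from proliferating or newly activated cells. Desmin (Des) is the filament of muscle, and synemin (Synm) is a large partner that ties vimentin and desmin filaments to adhesion sites. Gfap is the astrocyte filament, Krt8 and Krt18 are the pair of simple epithelia, Krt19 is their ductal companion, and Lmna encodes lamins A and C of the nuclear lamina.

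Cells of 2 arthritic rats were each divided over 3 culture media, which gave 6 libraries, 2 per medium, with the libraries of a rat carrying the same replicate number in every medium. The medium contained fetal bovine serum (FBS), serum from untreated animals (MS−), or serum from animals after 18 days of mechanical stimulation by needle (MS+), a procedure that the labels call acupuncture. All libraries therefore share the arthritic cell source, and the labels name no allele or drug; the age of the rats and the number of serum donors are not given in the sources used here. One label describes the MS− animals as healthy where its disease field reads arthritic, and the study describes the MS− serum both as taken before therapy and as taken from untreated arthritic animals. The replicate was taken as the rat that gave the cells, not a serum donor. On that reading the p-values of the fit with medium alone measure the spread between cells of 2 rats. With the rat added to the model as a block, the difference between the rats is taken out. Those p-values measure only how far the 2 rats differ in their differences between media.

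Poly(A) RNA was sequenced to 5463316 to 5991889 assigned reads per library, and levels are in CPM, the reads of a transcript scaled by TMM to a common library size. The 10 fibroblast markers looked up all passed the filter on low values, with a summed level of 69239 to 76583 CPM in FBS, 50325 to 51150 CPM in MS− and 54763 to 60020.1 CPM in MS+; Prg4, which encodes the lubricin of the synovial lining, was at 1.27 to 3.32 CPM. Smooth muscle and pericyte markers summed to between 10591 and 12450.3 CPM in every library, with Tagln in the lead and Rgs5 without a read. Cdh1 and Epcam of epithelium, Ptprc and Itgam of leukocytes, Cdh5 of endothelium and Sox10 of glia had no read in any library. Other genes of those marker lists did have reads. The glial list summed to 24.4 to 39.6 CPM per library, with 2 of its 7 genes passing the filter. The epithelial and mesothelial list summed to 8.95 to 22.9 CPM, with 1 of 6 passing. The macrophage list summed to 13.8 to 20.5 CPM, with 1 of 7, and the endothelial list to 0.18 to 1.47 CPM, with 1 of 5. In RNA from a whole culture, fewer cells of a type and less RNA per cell cannot be told apart.

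The sequences before the transcription starts of Nes, Vim and Lmna are shown because these 3 members had the most reads and differed in direction. They are the 150 bases that end just before the start in RefSeq (GRCr8), read 5′ to 3′ on the strand of the gene: chr2:175736438-175736587 on the plus strand for Nes, chr17:81577111-81577260 on the plus strand for Vim and chr2:176258236-176258385 on the minus strand for Lmna. Capitals mark matches to TATAAA, to CCAAT or to GGGCGG (the GC box), searched on both strands, none of which overlapped another.
Nes: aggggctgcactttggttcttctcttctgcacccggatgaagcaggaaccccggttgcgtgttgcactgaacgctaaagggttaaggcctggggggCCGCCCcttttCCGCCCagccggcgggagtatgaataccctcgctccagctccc
Vim: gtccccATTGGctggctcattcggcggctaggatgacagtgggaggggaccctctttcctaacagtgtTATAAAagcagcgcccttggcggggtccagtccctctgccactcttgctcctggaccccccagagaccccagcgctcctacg
Lmna: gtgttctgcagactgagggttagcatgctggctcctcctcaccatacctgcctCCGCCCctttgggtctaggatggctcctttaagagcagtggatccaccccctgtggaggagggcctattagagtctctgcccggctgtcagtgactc

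The Nes stretch holds 2 GC boxes, 54 and 43 bases before the start, and no TATAAA. The Vim stretch holds a TATAAA 82 bases and an inverted CCAAT 144 bases before the start, and the Lmna stretch a GC box at 97 bases. In the full 250 bases before the start, the one further match in these 3 genes was a GC box of Vim at 180 bases. Over 250 bases before the start of all 33469 RefSeq promoters, GGGCGG was found in 30.5%, CCAAT in 34.0% and TATAAA in 12.9%. None of the 8 members with an entry held the AP-1 letters TGANTCA or the CArG box, which 6.34% and 1.50% of all promoters held. These are matches of letters, not measured sites.

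Nestin was at its highest in FBS and at its lowest in MS+ in the cells of both rats. The Nes transcript (NM_012987, rn4 chr2:180051907-180060947, plus strand) was at 136 CPM in rat 1 and 93.2 CPM in rat 2 in FBS, from 832 and 562 reads. In MS− it was at 32.2 and 23.5 CPM (176 and 130 reads), and in MS+ at 16.9 and 8.63 CPM (94 and 47 reads). The 3 media did not overlap: every FBS library lay above every MS− library, and every MS− library above every MS+ library. Nes was chosen for its fall between MS+ and FBS, which favours such a separation. The share of all rows with separated media is not given here, so this and the separations below are descriptions. The means were 115 ± 30.4 CPM in FBS, 27.8 ± 6.15 CPM in MS− and 12.8 ± 5.88 CPM in MS+ (SD, n = 2 each).

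Against FBS, Nes was 8.04-fold lower in MS+ in rat 1 and 10.8-fold lower in rat 2, a difference of -3.11 (SE 0.33) on the scale of log2(CPM + 1). With the reads of both rats pooled, the ratio was 8.96 with a 95% interval of 7.53 to 10.7, which covers counting error only. MS− was 4.23-fold below FBS in rat 1 and 3.97-fold below it in rat 2, a log2 difference of -1.99 (SE 0.33). Between the rat sera, MS+ was 1.90-fold below MS− in rat 1 and 2.72-fold below it in rat 2, a log2 difference of -1.12 (SE 0.33). The larger part of the log2 distance from FBS to MS+ thus lay between FBS and MS−. With each library left out in turn the log2 difference stayed between -3.56 and -2.66 for MS+ against FBS, between -2.27 and -1.72 for MS− against FBS and between -1.57 and -0.67 for MS+ against MS−; the last of these was nearest to 0 without the MS+ library of rat 2.

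**Figure D1:**
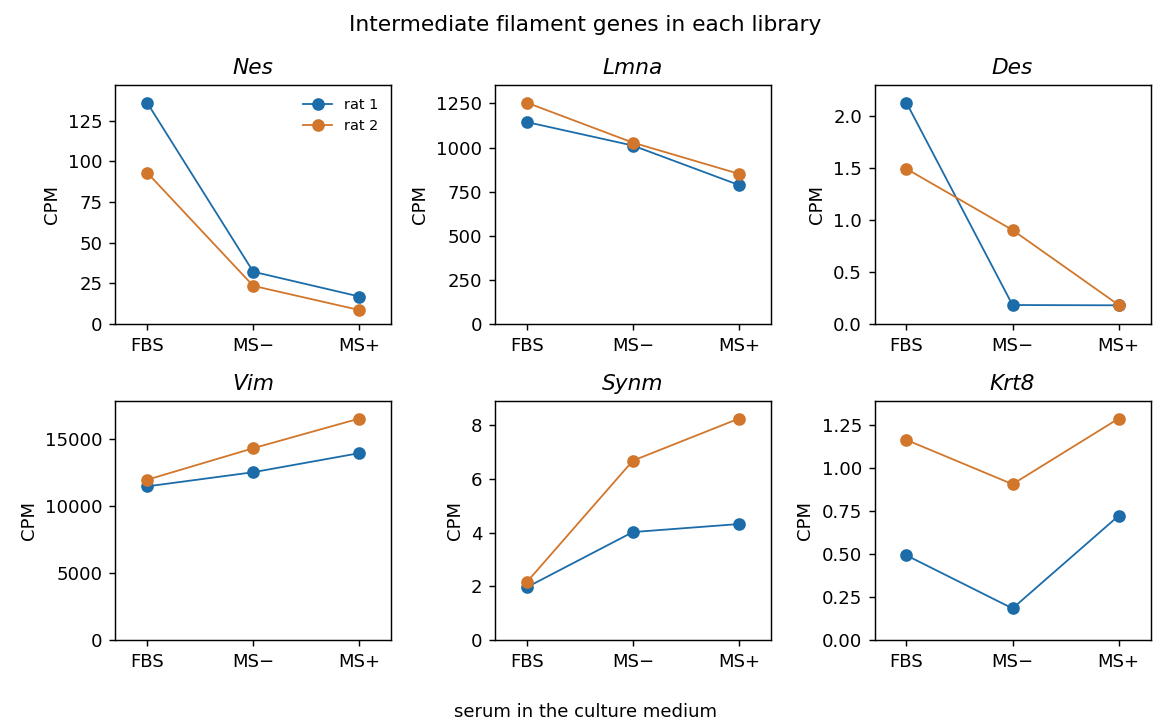
Levels in CPM of the 6 members with more than 3 reads in a library, by serum (FBS, MS−, MS+) on the x axis, each panel with its own linear y axis from 0; points are single libraries and lines join the cells of a rat. Nes goes from 136 and 93.2 CPM in FBS to 16.9 and 8.63 CPM in MS+, Lmna goes the same way over a smaller range, and Vim and Synm are highest in MS+.

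The other 8 members carry the tests, with p-values from limma adjusted by Benjamini-Hochberg over all 9820 transcript rows that passed the filter. Vim, Lmna, Synm and Des passed that filter, which asks for 1 CPM in both libraries of a medium, and Krt8, Gfap, Krt18 and Krt19 did not. Des passed through FBS alone, where it is high, so its difference was favoured by the filter. It is among the genes counted below at an unadjusted p under 0.05 against FBS in both rat sera. It is also counted with the rat as a block in MS+ against FBS. Its place in the counts is no support, and its own p-values are not given. Of these 4 genes, 1 (Lmna) was called in MS+ against FBS, beside 9.61% of all rows; 0 of 4 were called in MS− against FBS, beside 4.81%, and 0 of 4 in MS+ against MS−, beside 0.0204%. At an unadjusted p under 0.05 by limma the numbers were 3, 2 and 1 of the 4, beside 2703, 2074 and 1446 of all 9820 rows. Without the rat in the model, edgeR, DESeq2 and limma-voom each called 1, 0 and 0, and their shares of all rows are not given here. With the rat as a block, limma called 4 of 4 in MS+ against FBS, 1 of 4 in MS− against FBS and 1 of 4 in MS+ against MS−, beside 28.2%, 20.5% and 10.1% of all rows. The comparisons share libraries, and a count over 4 genes, Des among them, says little beside these shares.

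Lmna fell in MS+ relative to FBS. The Lmna transcript (NM_001002016, rn4 chr2:180595724-180616354, minus strand) lies 535 kb from the Nes transcript on the same chromosome. It was at 1144 and 1254 CPM in FBS, 1011 and 1028 CPM in MS−, and 788 and 851 CPM in MS+ for rats 1 and 2. The order of the media was that of Nes, again with no overlap between any pair of them, over a much narrower range. The means were 1199 ± 77.7, 1019.55 ± 11.7 and 819 ± 44.8 CPM (SD, n = 2 each). MS+ against FBS gave a log2 difference of -0.55 (SE 0.10; limma, adjusted p = 0.0246), MS− against FBS -0.23 (adjusted p = 0.259) and MS+ against MS− -0.32 (adjusted p = 0.242). With the rat as a block, the last comparison passed the threshold as well (limma, adjusted p = 0.0209). The call in MS+ against FBS did not survive the loss of any single one of the 6 libraries (limma, adjusted p = 0.0566 to 0.141), nor a fit of the 4 FBS and MS+ libraries alone (0.0554), while the block gave 0.000117.

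Vim did not pass the test, and its values ran in the direction opposite to Nes. The Vim transcript (NM_031140, rn4 chr17:87847280-87855763, plus strand) was at 11485 and 11981 CPM in FBS, 12544 and 14339.9 CPM in MS−, and 13972 and 16559 CPM in MS+. Both rats had the order FBS, MS−, MS+ from low to high, and the MS− and MS+ groups overlapped. The means were 11733 ± 350.2, 13442 ± 1269.6 and 15265.5 ± 1829.5 CPM (SD, n = 2 each). The log2 difference of MS+ from FBS was 0.37 (SE 0.20; limma, adjusted p = 0.282, and 0.0291 with the rat as a block), that of MS− from FBS 0.19 (adjusted p = 0.642) and that of MS+ from MS− 0.18 (adjusted p = 0.740). Within each rat, the MS+ library had the lowest Nes level and the highest Vim level. Between rats this did not hold throughout, since Vim was higher in MS− of rat 2 than in MS+ of rat 1. Nes was chosen for its fall, and a link between the 2 genes was not tested.

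Synm was higher in both rat sera than in FBS in each rat, at levels near the filter and short of the threshold without the block. The Synm transcript (NM_001134858, rn4 chr1:122474209-122504176, minus strand) was at 1.96 and 2.16 CPM in FBS (12 and 13 reads), 4.02 and 6.69 CPM in MS− (22 and 37 reads), and 4.32 and 8.26 CPM in MS+ (24 and 45 reads). FBS did not overlap either rat serum, and the rat sera overlapped each other. The log2 difference from FBS was 1.20 (SE 0.34) in MS+ and 1.02 (SE 0.34) in MS−, with limma adjusted p of 0.0740 and 0.149; with the rat as a block these were 0.00208 and 0.00853. MS+ and MS− differed by 0.18 (limma, adjusted p = 0.870), and this small difference changed sign when the MS− library of rat 1 or the MS+ library of rat 2 was left out.

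Desmin was close to the limit of detection, which is 0.491 to 0.551 CPM for 3 reads. The Des transcript (NM_022531, rn4 chr9:74637791-74645498, plus strand) had 13 and 9 reads in FBS (2.13 and 1.49 CPM), 1 and 5 reads in MS− (0.18 and 0.90 CPM), and 1 read in each MS+ library (0.18 CPM in both). The FBS libraries lay above all others, and MS− and MS+ overlapped. Over both rats, the MS+ level was 0.10 of the FBS level with an exact 95% interval of 0.0114 to 0.408, and the MS− level was 0.301 of it, with an interval of 0.0999 to 0.766, for counting error only. On the log2(CPM + 1) scale MS+ differed from FBS by -1.24 (SE 0.34) and MS− by -0.90 (SE 0.34), given here as a description. The 8 skeletal muscle markers summed to 9.17 to 27.4 CPM in FBS, 6.40 to 23.7 CPM in MS− and 4.50 to 11.7 CPM in MS+, led by Myh8, with Pax7 and Myf5 at 0 reads; their part in the values of Des and Nes was not tested.

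**Figure D2:**
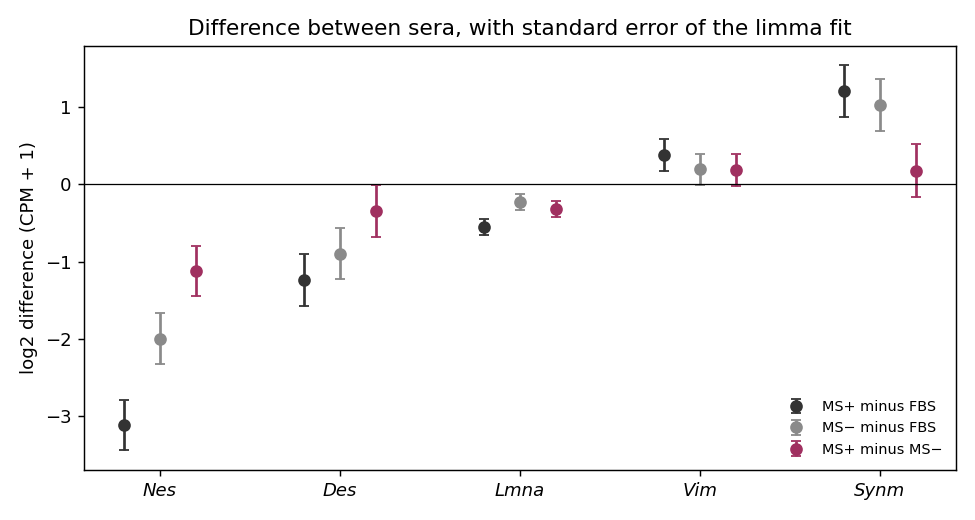
Difference between sera on the log2(CPM + 1) scale for the 5 members that passed the filter, as the estimate of limma with bars of 1 standard error; black is MS+ minus FBS, grey MS− minus FBS and red MS+ minus MS−. Nes lies at -3.11, -1.99 and -1.12, Des and Lmna lie below 0 in all 3 comparisons, and Vim and Synm lie above 0.

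The epithelial and astrocyte filaments were near or below detection. Krt8 (NM_199370, rn4 chr7:140713902-140721199, minus strand) had 3 and 7 reads in FBS, 1 and 5 reads in MS−, and 4 and 7 reads in MS+, that is 0.18 to 1.28 CPM, and the 3 media overlapped. Gfap had 1 read in all, in the MS+ library of rat 2. Krt19 (NM_199498, rn4 chr10:89080953-89085670, minus strand) and Krt18 had 0 reads in every library, which allows up to 0.491 to 0.551 CPM per library by counting error alone. The deposited Krt18 row lies at chr2:80043196-80044560 and spans 1365 bases, the shortest of the members, whereas in GRCr8 the Krt18 gene stands beside Krt8 with 0 protein-coding genes between them, and Krt8 is on chromosome 7. The 0 of this row therefore describes that interval, and the level of Krt18 beside its partner is not known from these data.

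Most of the remaining intermediate filament genes had no reads. Of 52 found, 36 had 0 reads in all libraries, 44 had fewer than 3 reads in each and 6 were tested. Of these 6, 1 was called in MS+ against FBS, 1 in MS− against FBS and 0 in MS+ against MS−. Over all rows, 9.61%, 4.81% and 0.0204% were called. With the rat as a block these were 3, 2 and 0, beside 28.2%, 20.5% and 10.1% of all rows. Lmnb1, which encodes the B-type lamin of the inner nuclear membrane, was at 22.3 and 22.7 CPM in FBS, 2.56 and 6.15 CPM in MS−, and 5.41 and 9.73 CPM in MS+, so that, unlike Nes and Lmna, it was at its lowest in MS− in both rats. It fell in MS− by 2.22 on the log2 scale (SE 0.38; limma, adjusted p = 0.0257), a call lost without either FBS library or the MS− library of rat 1, and its difference in MS+ was -1.50 (adjusted p = 0.0539, and 0.000167 with the rat as a block). Iffo1, a filament family member of the nuclear interior, rose in MS+ by 0.79 (SE 0.18; limma, adjusted p = 0.0440) from a mean of 53.5 CPM in FBS to 92.6 CPM, with 84.8 CPM in MS−; this call was lost without any single library. In MS− its difference was 0.67 (adjusted p = 0.0997, or 0.000196 under the block). The median of the 6 was 0.35 in MS+ against FBS and 0.18 in MS− against FBS, beside 0.00078 and 0.01 for all rows, and the former ranged from -0.38 to 0.86 over the alternatives. Iffo2 and Krt10 did not pass the test in any of the 3 comparisons.

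Among the genes that link filaments to junctions and to the nuclear envelope, 18 of 21 were tested, 0 rose and 2 fell in MS+ against FBS, beside 9.61% of all rows, and 0 passed in the other comparisons. With the rat as a block, 2 rose and 4 fell in MS+ against FBS, 1 rose and 4 fell in MS− against FBS, and 3 rose and 1 fell in MS+ against MS−, beside 28.2%, 20.5% and 10.1% of all rows. Tmpo, which encodes the lamin-binding protein LAP2, fell from a mean of 49.1 CPM in FBS to 25.4 CPM in MS+ (log2 -0.93, SE 0.14; limma, adjusted p = 0.0114) and stood at 32.8 CPM in MS−. Zmpste24, the protease that trims prelamin A to lamin A, fell from 76.3 to 48.3 CPM (log2 -0.65, SE 0.15; adjusted p = 0.0435), with 54.4 CPM in MS−. The Tmpo call was lost without either FBS library or the MS+ library of rat 1, and the Zmpste24 call without any one of the 6. In MS− against FBS, Tmpo and Zmpste24 were called under the block alone (limma, adjusted p = 0.00402 and 0.00438). Emd and Banf1, both of the nuclear envelope, did not pass the test without the block; with it, Emd was higher in MS+ than in FBS and MS− (adjusted p = 0.0305 and 0.00236), and Banf1 was lower in MS− than in FBS and MS+ (0.00545 and 0.00505). The median of the list was -0.09 in MS+ against FBS, near that of all rows.

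Hspb7, Hspb6 and Hspb1, small heat shock genes whose proteins bind intermediate filaments and limit their aggregation, rose in MS+ relative to FBS. Of 13 chaperones and ubiquitin ligases of filaments, all tested, 3 rose and 0 fell in MS+ against FBS, 2 rose and 0 fell in MS− against FBS, and 0 passed between the rat sera, beside 9.61%, 4.81% and 0.0204% of all rows. With the rat as a block, 4 rose and 1 fell against FBS in each rat serum, and 2 rose in MS+ against MS−, beside 28.2%, 20.5% and 10.1%; the 2 were Hspb6 and Hspb7 (limma, adjusted p = 0.000163 and 0.0117). Hspb7 was at 79.9 and 68.6 CPM in FBS, 145 and 159 CPM in MS−, and 197 and 214 CPM in MS+, with no overlap between media. Its log2 difference was 1.46 in MS+ against FBS (SE 0.11; limma, adjusted p = 0.00314) and 1.03 in MS− against FBS (adjusted p = 0.00567); the former call held under all 18 alternatives, and the latter was lost only without the MS− library of rat 2. Hspb6 rose from a mean of 96.4 CPM in FBS to 241 CPM in MS+ (log2 1.31, SE 0.12; adjusted p = 0.00456), a call that also held under all 18, and to 145 CPM in MS− (log2 0.58; adjusted p = 0.0497), a call that held in 5 of the 18 and was lost without any single library. Hspb1 rose from 633 to 1006 CPM in MS+ (log2 0.66, SE 0.13; adjusted p = 0.0280), and was called in 13 of the 18 alternatives, not without either FBS or either MS+ library nor without the filter on low values; in MS− it was called under the block alone (0.00123). Cryab, the small heat shock protein best known as a partner of desmin, differed more between rats than between media, at 545 and 256 CPM in FBS and 471 and 312 CPM in MS+.

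**Figure D3:**
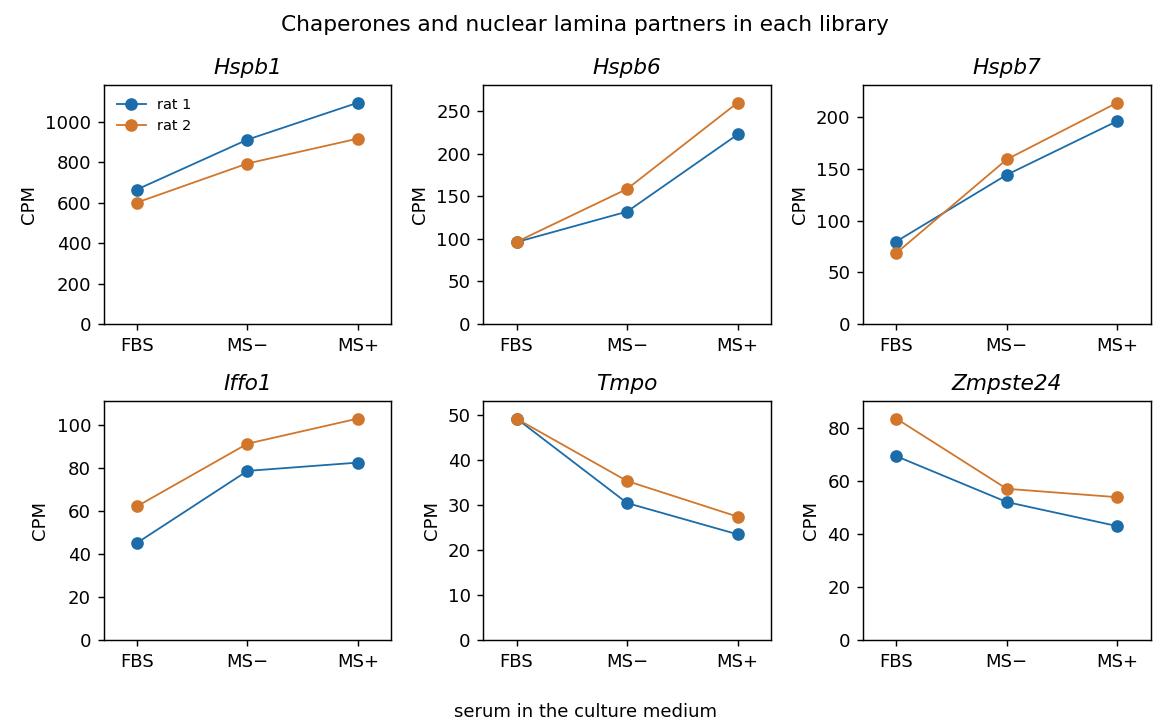
Levels in CPM of 3 small heat shock genes (Hspb1, Hspb6, Hspb7), the filament family gene Iffo1 and 2 genes of the nuclear lamina (Tmpo, Zmpste24) by serum, each panel with its own linear y axis from 0; points are libraries and lines join the cells of a rat. The heat shock genes and Iffo1 are highest in MS+ in both rats, and Tmpo and Zmpste24 are highest in FBS.

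Of the kinases and phosphatases that act on filaments, 20 of 21 were tested, and 1 rose and 5 fell in MS+ against FBS, 1 rose and 4 fell in MS− against FBS, and 0 passed in MS+ against MS−, beside 9.61%, 4.81% and 0.0204% of all rows. With the rat as a block, these were 1 and 7, 3 and 4, and 4 and 1, beside 28.2%, 20.5% and 10.1%. The genes that fell in both rat sera were Cdk1, Ccnb1, Plk1 and Aurkb, mitotic kinases and a cyclin whose complexes phosphorylate nestin, vimentin or lamins when cells divide; all 4 are also in the list of dividing-cell genes described next. Their log2 differences from FBS lay between -1.90 and -1.13 in MS+ and between -2.68 and -2.06 in MS−, and all 4 were called higher in MS+ than in MS− under the block (limma, adjusted p = 0.000365 to 0.0283). Cdk1, the mitotic kinase, was at 49.1 and 41.1 CPM in FBS, 8.60 and 7.05 CPM in MS−, and 17.8 and 19.6 CPM in MS+, a log2 difference of -1.22 (SE 0.17; limma, adjusted p = 0.00970) in MS+ and -2.39 (adjusted p = 0.00185) in MS− relative to FBS; the former call was lost without the FBS library of rat 1 or either MS+ library. Without the MS+ or the FBS library of rat 1 the list held 0 genes that fell in MS+ against FBS, without the MS+ or the FBS library of rat 2 it held 1, and without either MS− library it held 3.

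The genes of dividing cells were set beside Nes because nestin is known from proliferating cells. Of 14 such genes, 13 fell in MS+ against FBS and 12 in MS− against FBS, beside 9.61% and 4.81% of all rows called. With the rat as a block, 14 and 13 fell, beside 28.2% and 20.5% of all rows. The medians were -1.31 and -2.30 on the log2 scale. Mcm5, a subunit of the replicative helicase, was at 23.2 and 18.4 CPM in FBS, 0.91 and 1.45 CPM in MS− and 3.78 and 4.04 CPM in MS+; Rrm2, which supplies deoxynucleotides for replication, was at 54.8 and 57.7 CPM, 7.87 and 8.32 CPM, and 16.2 and 21.7 CPM. The summed level of the 14 was 482 to 484 CPM in FBS, 128 to 138 CPM in MS− and 193 to 207 CPM in MS+. The lowest sums were those of MS−, whereas the lowest Nes levels were those of MS+. Between the rat sera, the median of the list was 0.98 higher in MS+, while the log2 difference of Nes was -1.12. By limma, 0 of 14 were called, beside 0.0204% of all rows. With the rat as a block 11 were called higher, beside 10.1%. The count of 13 fell to 0 without the MS+ library of rat 1, to 2 without the FBS library of rat 1, and to 3 without the FBS library of rat 2 or the MS+ library of rat 2. The part of cell division in the levels of Nes was not tested.

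**Figure D4:**
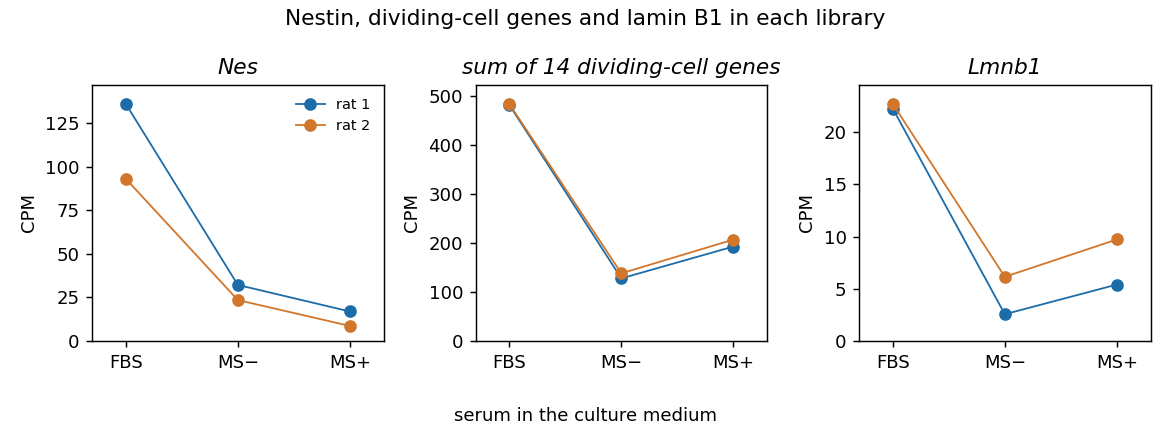
Levels in CPM of Nes, of the sum of 14 dividing-cell genes and of Lmnb1 by serum, each panel with its own linear y axis from 0; points are libraries and lines join the cells of a rat. All 3 are highest in FBS, but the sum (128 to 138 CPM) and Lmnb1 (2.56 and 6.15 CPM) are lowest in MS−, where Nes (32.2 and 23.5 CPM) lies above its MS+ levels.

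Transcription factors and Notch pathway genes associated with nestin were called in both directions. Of 17 found, 10 were tested, and 1 rose and 1 fell in MS+ against FBS, beside 9.61% of all rows, and 0 passed in the other 2 comparisons. With the rat as a block, 1 rose and 6 fell in MS+ against FBS, 3 rose and 6 fell in MS− against FBS, and 1 rose and 1 fell in MS+ against MS−, beside 28.2%, 20.5% and 10.1% of all rows. Sox2, a driver of nestin in neural progenitors, had 0 reads in every library. The receptor gene Notch2 rose from a mean of 169 CPM in FBS to 272 CPM in MS+ (log2 0.69, SE 0.13; limma, adjusted p = 0.0258), with 248 CPM in MS−, called there under the block alone (0.00104). Heyl, a transcriptional repressor downstream of Notch, fell from 4.58 and 2.82 CPM in FBS (28 and 17 reads) to 0.72 and 0.55 CPM in MS+. The MS+ values rest on 4 and 3 reads, close to the limit of detection. Its log2 difference was -1.50 (SE 0.28, limma adjusted p = 0.0244), and MS− was at 1.65 and 1.81 CPM (9 and 10 reads). Both calls were lost without the FBS library of rat 1 or either MS+ library, and that of Heyl also without the FBS library of rat 2. Jag1 and Hes1, a Notch ligand and a Notch target, did not pass the test without the block. With it, Jag1 was lower than FBS in MS+ and MS− (limma, adjusted p = 0.000279 and 0.00126), and Hes1 was higher in MS− than in FBS and MS+ (0.0365 and 0.00475). The medians of the list were -0.56 in MS+ against FBS and -0.55 in MS− against FBS.

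The genes whose log2 levels ran most like those of Nes were sought among 8286 genes with a mean of at least 5 CPM, over the 6 libraries, which share 3 media and 2 rats. The closest were Tnfaip2 (r = 0.994), Msx1 (0.994), Cep131 (0.990), Mcm2 (0.990) and Cep41 (0.988), of which Cep131 overlaps 2 microRNA rows. Msx1, a homeobox factor of mesenchymal progenitors, was at 37.5 and 35.3 CPM in FBS, 24.7 and 23.7 CPM in MS−, and 20.4 and 18.4 CPM in MS+. It followed the order of Nes over a range much narrower than the 8.04- and 10.8-fold of Nes, as did Tnfaip2, from 78.1 and 67.5 CPM in FBS to 49.0 and 42.9 CPM in MS+. Mcm2, a helicase subunit of the dividing-cell list, was at 48.9 and 43.8 CPM in FBS, 28.7 and 28.6 CPM in MS−, and 24.5 and 17.3 CPM in MS+, and so did not share the MS− minimum of Mcm5. The most opposite were Plpp6 (-0.996; its row overlaps another gene), Tmem165 (-0.995) and Arfip2 (-0.992). Tmem165, a Golgi membrane protein, was at 56.1 and 60.5 CPM in FBS, 69.5 and 76.3 CPM in MS−, and 79.6 and 85.9 CPM in MS+. With so many genes and 6 points, correlations of this size are found by choice and carry no test.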

How the data were processed

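Cells, media and libraries were as labelled, and groups were taken from the labels. The authors aligned reads to rn4 with Bowtie2 2.1.0, counted them per transcript with HTSeq 0.5.4p3 (intersection-nonempty) and deposited a signal in CPM, TMM-scaled with edgeR; how strand was used is not given in the sources used here. Dividing each deposited column by the value of 1 read gave whole reads for 100% of the values (tolerance 1e-06), which serve the count alternatives. The libraries held 5463316 to 5991889 reads, and 3 reads equal 0.491 to 0.551 CPM; floors and intervals cover counting error only.

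Of 17221 rows, 9820 reached 1 CPM in both libraries of at least 1 group. Differences on log2(CPM + 1) were tested with limma 3.58.1 (lmFit, eBayes with trend, two-sided; R 4.3.3) over all 6 libraries with medium as the only term, with Benjamini-Hochberg adjustment and a threshold of 0.05. The fold of low genes is understated on this scale. The replicate numbers were taken as the 2 rats that gave the cells, and so pair the libraries. The difference between rats correlated over rows by 0.49 to 0.62 between media. A second fit, with rat added as a block, is therefore given where it alters the call of a member or of a gene named from the lists, the 14 dividing-cell genes as a count. The chi-square of reads between the libraries of a group was 13.6 to 15.1 per degree of freedom, so none was a copy. Other alternatives were edgeR 4.0.16, DESeq2 1.42.0, limma-voom, other filters, scalings and pseudocounts, and leaving out libraries. The scripts were tested on simulated data.

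All 9 members are named. From each gene list, up to 4 genes called in any comparison were named by size of change, topped up by level; 1 gene of the kinase list is not reported here. Members and lists were chosen with earlier results of these data known. Symbols and promoter sequences are from RefSeq GRCr8, in which 15958 rows (92.7%) were found; its coordinates were not mixed with those of rn4, which are 1-based here. Krt19 is not shown among the promoters.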

Additional observations from a re-analysis of the deposited data

How the results depend on the processing

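Among the 9 members, the following calls changed with the processing. For MS+ against FBS the number of the 4 tested members called went from 1 to 4 with the replicate block in limma and 4 in edgeR with that block, to 0 with only the 4 libraries compared, and to 0 with each library left out. For MS− against FBS it went from 0 to 1 with the block and 2 in edgeR with the block, and for MS+ against MS− from 0 to 1 under both. Under the block in limma and in edgeR, the calls gained in MS+ against FBS had log2 values of 0.37 and 0.37 for Vim, -1.24 and -3.175 for Des, and 1.20 and 1.58 for Synm; in MS− against FBS they were 1.02 and 1.35 for Synm, with Lmna at -0.25 in edgeR alone, and in MS+ against MS− -0.32 and -0.31 for Lmna. Des passed the filter through FBS alone, so its gained call is no support. The block, which pairs the libraries of a rat, also took the rows called from 944 to 2773, from 472 to 2011 and from 2 to 987. Lmna in MS+ against FBS missed the threshold at -0.55 with the 4 libraries, and ranged from -0.62 to -0.48 with a library left out. Synm in MS+ against MS− ranged from -0.22 to 0.57, and was reversed at -0.13 without the MS− library of rat 1 and at -0.22 without the MS+ library of rat 2. Calls of list genes also changed, beside the block and the libraries left out: Iffo1 in MS+ against FBS was called under 9 of 18 alternatives, Zmpste24 under 10, Aurkb under 9, Hspb1 under 13 and Heyl under 12 of 17, and Hspb6 in MS− against FBS under 5 of 18. Without the filter on low values, Lmnb1 in MS− against FBS and Iffo1, Zmpste24, Aurkb and Hspb1 in MS+ against FBS missed the threshold; with DESeq2, Aurkb and Heyl did. With only the 4 libraries compared, Iffo1, Zmpste24 and Aurkb missed it, as did Iffo1 with library totals as the scaling. The cause was not tested. A filter of 5 CPM leaves no value for Synm and Des, and DESeq2 gave Des no adjusted p in MS+ against MS−. With 2 rats and 1 to 45 reads a library, the values of Synm, Des and Krt8 are limited by counting.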
